A study of Mus musculus with 48 samples.

Results

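IGHA, the heavy-chain constant gene of IgA, was followed in the lacrimal gland (LG) and the spleen of the same mouse. Its members were all sequences whose constant gene was called IGHA, in all 48 libraries of 24 mice. IGHA was 1 of 8 constant genes in these libraries and held 3817577 of 14545027 deposited counts, each count standing for the consensus of reads with the same molecular barcode. After removal of nucleotide sequences that occurred in 3 or more mice of a tissue, it held 3511974 of 13113989 counts, of which 2318542 came from LG and 1193432 from spleen. Each mouse gave 1 LG and 1 spleen library, amplified from total RNA with primers in the first constant exon of each isotype.

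All mice were C57BL/6 (B6). The 10 NOD-FMT mice drank ampicillin, vancomycin and metronidazole for 7 days and from an age of 5 weeks received stool supernatant from NOD.B10.H2b mice, a strain with autoimmune dry eye disease, by gavage for 3 weeks. The 9 PBS-T mice had the same antibiotics and the same schedule of gavage with PBS, so that antibiotics were shared by both gavaged groups. Their age is not given apart from that shared schedule. The 5 BCR control mice were untreated B6 mice, and their age is not stated. Stool of several donors was combined, so NOD-FMT mice were replicates of the recipient and not of the donor.

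IgA is the antibody class of mucosal and glandular secretions. In the LG, plasma cells under the ducts and acini release dimeric IgA, which the polymeric immunoglobulin receptor carries into tears, whereas the spleen is a lymphoid organ dominated by IgM+ and IgD+ naive B cells. A B cell reaches IgA by class switching, a recombination started by activation-induced cytidine deaminase that brings the rearranged V region to IGHA. The same enzyme mutates the V region in germinal centres, so the mismatches of an IgA sequence to its germline V gene are used as a measure of somatic hypermutation (SHM). The release of the germline set is not given, so mismatches, and with them the mutated and unmutated shares, may include allele differences.

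In the mouse genome build GRCm38, the gene Igha (ENSMUSG00000095079.6) lies on the minus strand at chr12:113254830-113260236. The first exon of both annotated transcripts, at chr12:113259934-113260236, is wholly coding and encodes the CH1 domain. The IgA-specific part of the reverse transcription primer is shown because it defined which transcripts could be counted. It has 21 bases and matched the transcript once, at chr12:113260202-113260222 in exon 1, beginning at base 15 of CH1.
IgA primer: tgtcagtgggtagatggtggg

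The deposited libraries held 40513 to 360216 counts in LG and 86717 to 2302185 in spleen. After the filter, IgA counts ranged from 15749 to 259453 in LG and from 3852 to 181793 in spleen. IgM was the largest class in the spleen of every group (68.2% ± 6.52 in NOD-FMT, 73.9% ± 6.82 in PBS-T and 68.2% ± 2.82 in BCR control mice, SD). No expression of other marker genes was measured. The filter removed 9.82% of the LG and 4.26% of the spleen IgA counts, and the largest losses were 38.5% in the LG of PBS-T 5 and 23.96% in the LG of NOD-FMT 7. The names of the deposited data, not the sample titles, mark 11 LG libraries as merged, 6 of NOD-FMT, 4 of PBS-T and 1 of BCR control.

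Some LG libraries stood apart. The LG of PBS-T 5 held 14168 IgA clonotypes (sequences alike in IGHV gene, in IGHJ gene and in the translated HCDR3), where the other PBS-T glands held 260 to 557. Even after the filter it shared 60 to 199 identical IgA nucleotide sequences with each of the 5 BCR control glands and 161 with the LG of PBS-T 7. The LG of BCR control 2 shared 764 identical IgA sequences with the LG of BCR control 3, and 51.0% of its clonotypes were there. Its clonotypes were also found more often in the spleen of BCR control 3 than in its own, so the label or purity of this gland library is in doubt, and its comparisons with its own spleen depend on the label. In the LG of PBS-T 2, a single clonotype made up 52.0% of the IgA counts. Several results that rest on these libraries, but not all, are given with and without them.

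IgA formed most of the LG repertoire and a minor part of the spleen repertoire in all 3 groups. In NOD-FMT mice the IgA share of all counts in LG had a lowest value of 94.6%, a median of 96.9% and a highest value of 98.7%. The spleens of the same mice ranged from 7.78% to 16.4%, with a median of 9.88%. The mean share was 96.7% ± 1.31 in LG and 10.95% ± 2.95 in spleen (SD, n = 10), a difference of 85.8 percentage points that was present in 10 of 10 mice (exact sign-flip permutation test over mice, two-sided, p = 0.00195, adjusted p = 0.00977 over 15 tests). The smallest p that this exact sign-flip test can give is 0.00195 for 10 mice and 0.00391 for 9. Where every mouse of a group has the same direction, the test returns that value whatever the spread between mice. In bulk RNA, fewer IgA+ cells and less IGHA RNA per cell cannot be told apart, and a share also depends on the efficiency of each isotype primer.

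PBS-T glands were far less uniform. Their IgA share ranged from 13.9% to 97.1% with a median of 86.7%, against 4.06% to 17.8% in spleen. The 4 lowest glands had IgA shares of 13.9% (PBS-T 9), 42.3% (PBS-T 2), 72.4% (PBS-T 8) and 76.9% (PBS-T 3). In the gland of PBS-T 9 the remainder was led by IgM (48.9%) and IgG2c (32.1%), and in the gland of PBS-T 2 by IgG2b (30.5%) and IgM (25.0%). LG exceeded spleen in 9 of 9 mice, by 65.7 points on average (exact sign-flip test, p = 0.00391, adjusted p = 0.0146). In the BCR control mice 1 to 5 the LG share was 96.7%, 88.6%, 97.7%, 97.3% and 97.8%, and the spleen share was 20.3%, 24.3%, 13.6%, 16.9% and 13.3%. The tissues did not overlap in these 5 mice, but an exact sign-flip test over 5 mice cannot go below p = 0.0625, which was the value obtained for the difference of 77.9 points.

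**Figure D1:**
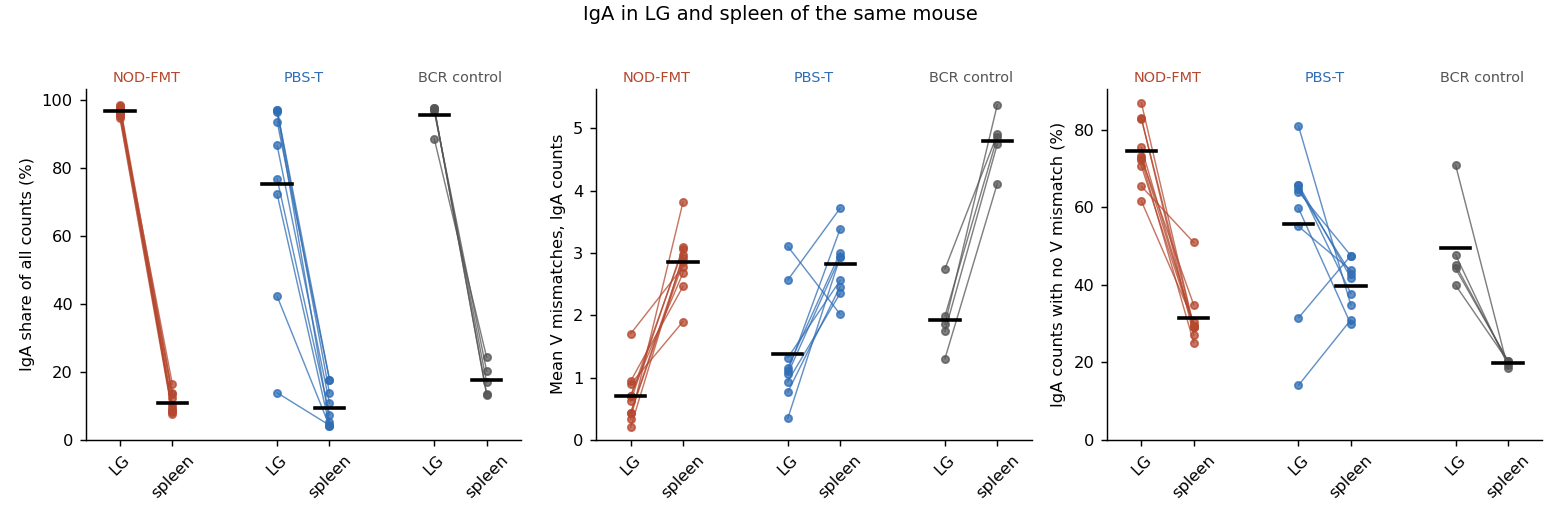
IgA in LG and spleen, with 1 line per mouse and black bars for group means (5 BCR control, 9 PBS-T and 10 NOD-FMT mice). The panels plot the IgA share of all counts in percent, the mean number of V mismatches over IgA counts, and the percent of IgA counts with no V mismatch. LG lies above spleen in the first panel in all 24 mice and below it in the second in 23 of 24.

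The gain of IgA from spleen to LG was larger in NOD-FMT than in PBS-T mice by 20.1 percentage points (exact permutation test over all 92378 splits of the 19 mice, two-sided, p = 0.00154, adjusted p = 0.00625 over 5 tests). The difference was 13.1 points without PBS-T 9 (adjusted p = 0.0101). It was 17.7 points without PBS-T 2 and 5 (adjusted p = 0.028). Among mice with merged LG libraries it was 8.29 points, and among the others 30.6 points, with p = 0.114 and 0.0873 in exact tests of 10 and 9 mice. The spleen shares of both groups overlapped over most of their range. The mean LG share was 96.7% in NOD-FMT, 75.2% in PBS-T and 95.6% in untreated BCR control mice. In BCR control mice the gain was 77.9 points.

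No other constant gene followed IGHA closely across libraries. As a description over 24 libraries of a tissue, the genes with the highest Spearman correlation with the IGHA share were IGHE (0.02) and IGHD (-0.32) in LG, and IGHD (0.38) and IGHG1 (-0.02) in spleen. The lowest was IGHM, at -0.87 in LG and -0.69 in spleen. All of these are shares of 1 total and constrain each other.

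IgA sequences of the LG carried fewer V mismatches than those of the spleen. In NOD-FMT mice the mean number of mismatches per IgA sequence, weighted by counts, ranged from 0.202 to 1.70 in LG (median 0.660) and from 1.90 to 3.82 in spleen (median 2.88). The tissues of this group did not overlap. The means were 0.697 ± 0.427 and 2.85 ± 0.488 (SD, n = 10), so that LG IgA had 2.15 fewer mismatches and was lower in 10 of 10 mice (exact sign-flip test, p = 0.00195, adjusted p = 0.00977). When each clonotype was weighted once, the means were 1.77 in LG and 3.24 in spleen.

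PBS-T mice showed the same direction with more spread. Their glands ranged from 0.346 to 3.10 mismatches (median 1.10) and their spleens from 2.02 to 3.72 (median 2.93). LG IgA was lower in 8 of 9 mice, by 1.44 on average (exact sign-flip test, p = 0.00781, adjusted p = 0.0234). The exception was PBS-T 5, with 3.10 in LG and 2.02 in spleen. Without PBS-T 2 and 5 the difference was -1.85, given with no test because the opposite mouse is among those left out, and with each clonotype weighted once it was -0.74 (adjusted p = 0.0732).

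In BCR control mice 1 to 5 the LG had 1.74, 1.30, 1.99, 2.74 and 1.85 mismatches and the spleen had 4.74, 4.11, 4.86, 4.90 and 5.38. Every gland was below every spleen, with a mean difference of -2.87 (exact p = 0.0625, the smallest possible). It was -2.89 without BCR control 2 and 3. When each clonotype was weighted once, the means of the 5 mice were 2.86 in LG and 3.93 in spleen. The gap between tissues did not differ detectably between NOD-FMT and PBS-T mice (-0.71, exact permutation p = 0.105, adjusted p = 0.175), and the difference was -0.393 without PBS-T 5. Among mice with merged LG libraries the mean gap was -1.73 in NOD-FMT and -1.66 in PBS-T, and among the others -2.79 and -1.27.

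The share of IgA counts with an unmutated V segment showed how much of the repertoire was close to germline. In NOD-FMT glands it ranged from 61.7% to 87.0% (median 73.1%) and in their spleens from 25.1% to 51.0% (median 29.3%), again without overlap. The mean rose by 43.0 points from spleen to LG, in 10 of 10 mice (exact sign-flip test, p = 0.00195, adjusted p = 0.00977). The gap was smaller with each clonotype weighted once, at means of 51.6% in LG and 32.4% in spleen. In PBS-T mice the glands ranged from 14.1% to 81.0% (median 64.1%) and the spleens from 29.9% to 47.6% (median 41.8%). The mean difference there was 16.1 points with 7 of 9 mice higher in LG, and it missed the threshold (exact sign-flip test, p = 0.0547, adjusted p = 0.0781). With 1 mouse left out it was 12.3 to 20.2 points and stayed uncalled in 8 of 9 settings. It passed only without PBS-T 2 (exact sign-flip test, adjusted p = 0.0439), a mouse of opposite direction, whose removal favours a pass. When each clonotype was weighted once, the PBS-T means were 48.7% in LG and 39.2% in spleen.

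The opposite PBS-T mice were PBS-T 2, with 14.1% in LG and 31.0% in spleen, and PBS-T 5, with 31.5% and 47.6%. Without these mice the difference was 25.4 points, a value that leaves only mice of 1 direction and so is given with no test. In BCR control mice 1 to 5 the unmutated share was 44.2%, 70.9%, 47.8%, 39.9% and 45.2% in LG and 20.4%, 18.5%, 19.3%, 20.3% and 20.2% in spleen. The gain was 29.9 points (exact p = 0.0625), and 22.8 points without BCR control 2 and 3. It was smaller with each clonotype weighted once, at means of 36.6% in LG and 30.2% in spleen.

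The gain in unmutated share was 26.9 points larger in NOD-FMT than in PBS-T mice (exact permutation test, p = 0.0025, adjusted p = 0.00625). It was 17.6 points without PBS-T 2 and 5, the PBS-T mice of opposite direction, whose removal narrows the difference. With each clonotype weighted once it was 9.67 points and past the threshold no longer (adjusted p = 0.0633). Among mice with merged LG libraries it was 15.8 points and among the others 39.9 points, with exact permutation p-values of 0.0714 and 0.0317 that did not pass after adjustment (0.286 and 0.146).

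Group means of heavily mutated IgA were higher in spleen. Sequences with 6 to 10 mismatches held 1.57% of LG and 13.4% of spleen IgA counts in NOD-FMT mice, 7.06% and 14.8% in PBS-T mice, and 9.49% and 28.5% in BCR control mice. More than 10 mismatches were found in 0.677%, 0.758% and 1.27% of LG and in 3.74%, 4.86% and 9.80% of spleen IgA counts of the 3 groups in the same order. The LG share was the higher one in PBS-T 2 (25.5% against 20.5%) and PBS-T 5 (16.8% against 10.3%) for 6 to 10 mismatches, and in PBS-T 5 (4.67% against 1.54%) and NOD-FMT 6 (3.42% against 2.30%) for more than 10. Single libraries led some LG means. Without PBS-T 2 and 5 the PBS-T glands had 3.04% with 6 to 10 mismatches. Without PBS-T 5 they had 0.270% with more than 10, and without NOD-FMT 6 the NOD-FMT glands had 0.373%. These shares describe the same values as the means above and were not tested again.

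HCDR3, the loop at the V-D-J junction that contributes most to antigen contact, did not differ detectably in length between tissues. Its mean length over counts was 11.4 ± 0.769 amino acids in LG and 11.1 ± 0.495 in spleen of NOD-FMT mice (exact sign-flip p = 0.256). It was 11.5 ± 1.018 and 11.4 ± 0.373 in PBS-T mice (p = 0.82, exact sign-flip test), and 11.4 ± 0.262 and 11.5 ± 0.444 in BCR control mice (exact p = 0.625). NOD-FMT and PBS-T did not differ detectably in the gap (0.227, exact permutation p = 0.619). With 1 mouse left out the NOD-FMT gap stayed between 0.151 and 0.462. The other small gaps changed sign with the mice left out, as given in the closing section.

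Individual mice departed from this mean. NOD-FMT 5 had a mean of 13.0 amino acids in LG, where 1 clonotype with an HCDR3 of 15 amino acids held 26.6% of the IgA counts, and PBS-T 2 had 9.49. HCDR3 of 8 or fewer amino acids made up 15.7% ± 6.71 of LG and 12.7% ± 7.11 of spleen IgA counts in NOD-FMT mice. The order was opposite in PBS-T mice (10.5% ± 11.04 and 12.5% ± 6.04) and in BCR control mice (7.99% ± 3.37 and 11.3% ± 3.70), with no test. The net charge of HCDR3, with each clonotype counted once, was 0.0938 ± 0.143 in NOD-FMT glands and -0.17 ± 0.0658 in their spleens. It was -0.238 ± 0.0745 and -0.245 ± 0.0687 in PBS-T mice, and -0.155 ± 0.0386 and -0.268 ± 0.0487 in BCR control mice. Single NOD-FMT glands ranged from -0.0873 to 0.274, with 4 of 10 below 0. Each of them lay above its own spleen, as did every BCR control gland. Weighted by counts, the means were 0.128 ± 0.329 in LG and -0.224 ± 0.388 in spleen of NOD-FMT mice. There LG was below spleen in NOD-FMT 3, 4 and 6. The means by counts were -0.293 and -0.266 in PBS-T mice, and -0.0761 and -0.189 in BCR control mice. These values are given with no test.

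**Figure D2:**
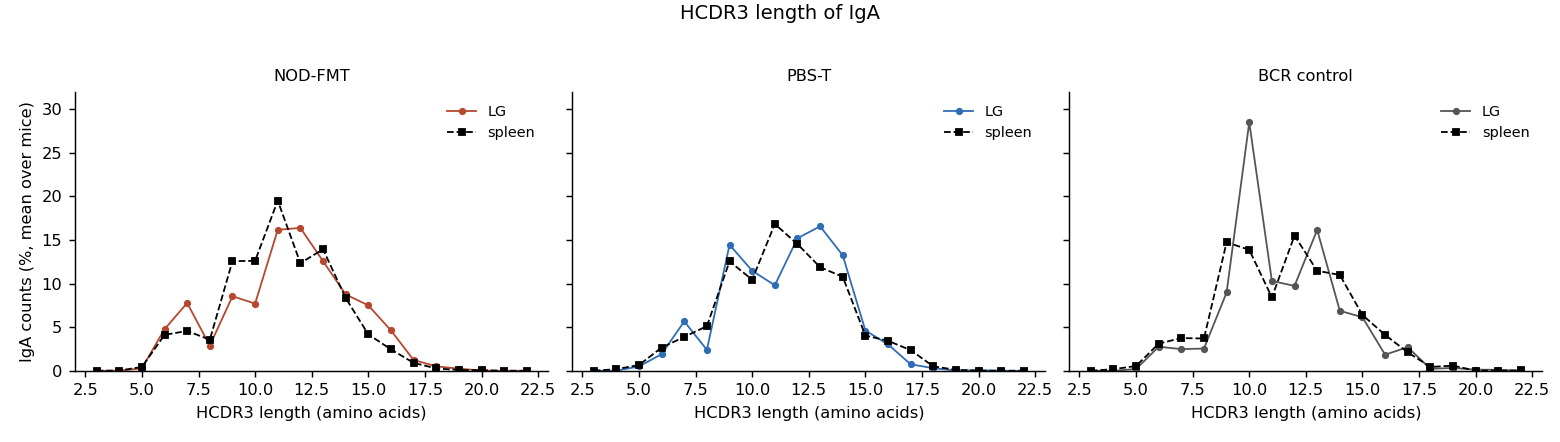
HCDR3 length of IgA in amino acids against the percent of IgA counts, averaged over mice, with 1 panel per group (coloured solid line, LG; black dashed line, spleen). Group means lie between 11.1 and 11.5 amino acids in both tissues, and the highest point is 28.5% of LG IgA counts at 10 amino acids in BCR control mice.

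Fewer clonotypes carried the LG IgA. At an equal depth of 3852 IgA counts, glands held a mean of 291 ± 69.0 clonotypes in NOD-FMT and 321 ± 58.1 in BCR control mice, against 1069 ± 230.3 and 1047 ± 82.6 in spleen. PBS-T glands had a median of 195.8 and a highest value of 1785 (PBS-T 5), against a spleen median of 1020. The number of clonotypes that made up 50% of the IgA counts averaged 16.5 in LG and 68.1 in spleen of NOD-FMT mice, and 16.4 and 67.8 in BCR control mice. In PBS-T glands its median was 9, against 64 in spleen.

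Evenness (normalised Shannon entropy of clonotype shares, at most 1) was lower in LG. It was 0.642 ± 0.054 in LG and 0.727 ± 0.0767 in spleen of NOD-FMT mice, lower in 9 of 10 (exact sign-flip test, p = 0.0195, adjusted p = 0.0419). It was 0.637 ± 0.127 and 0.758 ± 0.0308 in PBS-T mice, lower in 8 of 9 (exact sign-flip test, p = 0.0117, adjusted p = 0.0293). BCR control mice had 0.667 ± 0.0587 and 0.736 ± 0.0114, lower in 5 of 5 (exact p = 0.0625). Their gap of -0.0695 was -0.0455 without BCR control 2 and -0.0495 without BCR control 2 and 3. The NOD-FMT call was lost when any mouse other than NOD-FMT 8 was left out, and the PBS-T call when PBS-T 3, 4, 6, 7, 8 or 9 was left out. At equal depth the gaps were -0.0595 and -0.108 and both calls were lost (exact sign-flip tests, adjusted p = 0.0781 and 0.0684). The gap did not differ detectably between NOD-FMT and PBS-T mice (0.0372, exact permutation p = 0.52).

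The same IgA clonotypes were found in both tissues of a mouse. In NOD-FMT mice 16.04% to 46.0% of the LG IgA clonotypes (median 32.5%) were also IgA in the own spleen. In NOD-FMT and PBS-T mice no other spleen held more than 7.69% of the IgA clonotypes of a gland. In PBS-T mice the own-spleen share was 20.1% to 58.2% in 8 mice and 1.33% in PBS-T 5. In BCR control mice 1 to 5 it was 39.7%, 19.1%, 34.8%, 27.6% and 39.0%. Own exceeded other spleens by 29.5 points in NOD-FMT (10 of 10 mice) and 30.5 points in PBS-T mice (9 of 9), both with an adjusted p of 0.00586 over 3 exact sign-flip tests. The value was 29.4 points in BCR control mice (5 of 5, exact p = 0.0625). NOD-FMT and PBS-T did not differ detectably in this excess (-0.998 points, exact permutation p = 0.873). With 1 mouse left out this difference ran from -4.71 to 2.35 points and was positive without NOD-FMT 1 or 2 or PBS-T 1, 4 or 9. Weighted by LG counts it was 15.1 points (exact permutation p = 0.0452), and 7.65 points without PBS-T 5 (exact permutation p = 0.0998).

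The own spleen was the best match for 23 of 24 glands. The exception was BCR control 2, whose LG clonotypes were found in 32.8% in the spleen of BCR control 3 and in 19.1% in its own. At the nucleotide level, LG and own spleen shared 117 to 789 identical IgA sequences, and no other spleen shared more than 13, apart from the 305 between the LG of BCR control 2 and the spleen of BCR control 3. Sequences common to several mice had already been filtered out of each tissue, which limits how many matches another spleen can show. Counts of identical sequences without that filter are not given here, so its part in the low values for other spleens was not tested. Without BCR control 2 and 3 the excess of the own spleen in BCR control mice was 34.0 points.

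**Figure D3:**
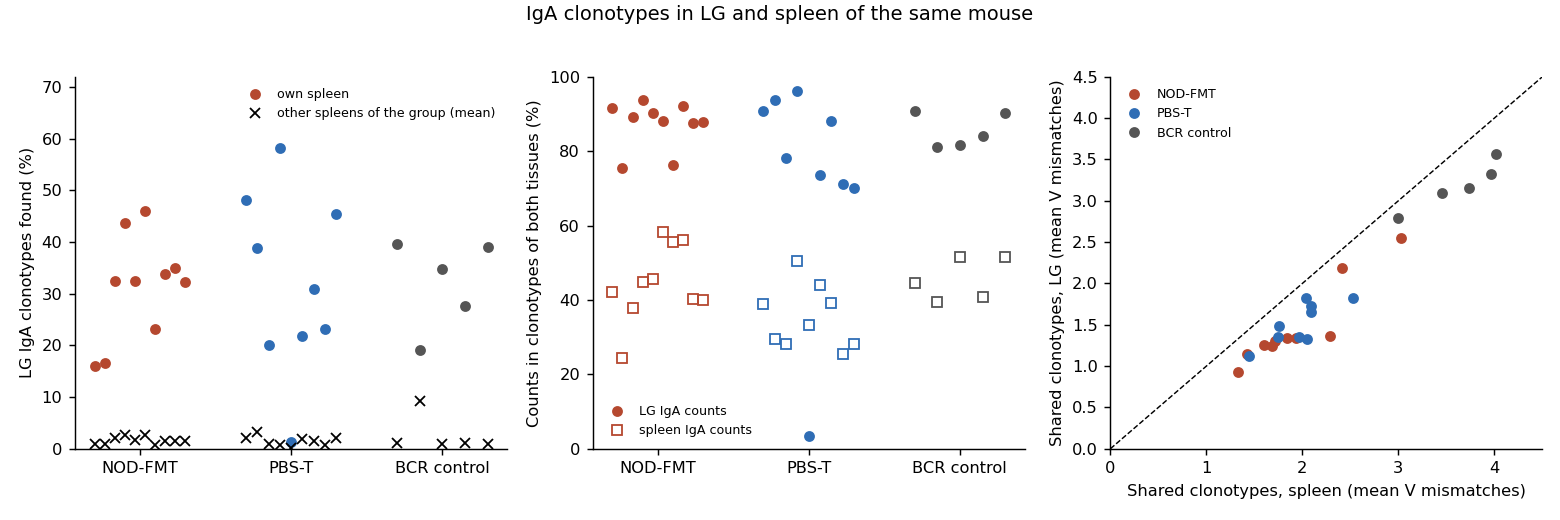
IgA clonotypes in both tissues of a mouse, 1 mark per mouse (10 NOD-FMT, 9 PBS-T, 5 BCR control). Left, percent of LG IgA clonotypes in the own spleen (circles) and on average in other spleens of the group (crosses), middle, percent of IgA counts of LG (circles) and spleen (squares) in clonotypes of both tissues, right, mean V mismatches of those clonotypes in LG against spleen, each counted once, with the line of equality. In the right panel all 24 mice lie below the line.

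Shared clonotypes were the large ones. They held 70.1% to 96.3% of the LG IgA counts in 23 mice and 3.53% in PBS-T 5, and 24.4% to 58.3% of the spleen IgA counts, although they made up only 1.55% to 11.3% of the spleen IgA clonotypes. Of the 240 clonotypes that ranked in the top 10 of an LG, 217 were found as IgA in the own spleen. The share of LG IgA clonotypes that occurred as IgM in the own spleen was 7.56% to 30.3% in 23 mice and 1.08% in PBS-T 5. The number of clonotypes found in a tissue depends on depth, so shares of clonotypes and of counts are given together. A large clonotype is also more easily detected in both libraries, and how far detection shapes these shares was not tested.

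Fewer mismatches in LG held within shared clonotypes. Of 5621 clonotypes found in both tissues of a mouse, 3101 had more V mismatches in spleen, 1874 had more in LG and 646 were equal. The mean over shared clonotypes was lower in LG in 24 of 24 mice with each clonotype counted once. By counts it was lower in 23 of 24, and the exception was NOD-FMT 8 with 0.92 in LG and 0.90 in spleen. Shared clonotypes were also set beside those found in a single tissue, with no test. In spleen, shared clonotypes had fewer mismatches than those found only in spleen in 19 of 19 gavaged mice each counted once and in 18 by counts. This held in 3 of 5 and 1 of 5 BCR control mice, with means of 3.63 for shared and 3.95 for spleen-only clonotypes each counted once, and of 4.96 and 4.65 by counts. In LG, shared clonotypes had fewer mismatches than LG-only ones in 17 of 19 gavaged mice each counted once, but in 10 of 19 by counts. The gavaged means were 1.49 against 2.18 each counted once and 0.960 against 0.816 by counts. In BCR control glands shared clonotypes had more in 5 of 5 mice each counted once (3.19 against 2.71) and in 4 of 5 by counts (1.95 against 1.75).

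The largest shared clonotypes of each group differed between mice and are shown by the HCDR3 nucleotides most frequent in LG, which were also the most frequent in the own spleen. The clonotype of NOD-FMT 5 used IGHV1-72 and IGHJ3, held 26.6% of the LG and 1.16% of the spleen IgA counts, and had 0.0325 and 0.0993 mismatches. That of PBS-T 2 used IGHV1-9 and IGHJ2, held 52.0% and 6.996%, and had 1.63 and 3.13 mismatches. That of PBS-T 8 used IGHV10-3 and IGHJ2 and held 29.5% and 4.87%, with 2.62 and 2.37 mismatches. That of BCR control 2 used IGHV11-2, a gene typical of B-1 cells, with IGHJ2, and held 18.6% and 0.115%, in the gland library whose label or purity is in doubt.
NOD-FMT 5: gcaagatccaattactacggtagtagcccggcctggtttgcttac
PBS-T 2: gcaagagggggaaactactttgactac
PBS-T 8: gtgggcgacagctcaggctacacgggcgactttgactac
BCR control 2: atgagatgggggggggacggctttgactac

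Other large shared clonotypes had a similar imbalance. In NOD-FMT 4 an IGHV5-16/IGHJ4 clonotype held 23.3% of the LG and 0.149% of the spleen IgA counts, and in NOD-FMT 6 an IGHV7-3/IGHJ2 clonotype held 17.3% and 0.292%. In PBS-T 6 an IGHV1-53/IGHJ2 clonotype held 24.4% and 2.18%. In BCR control 1 an IGHV1-53/IGHJ1 clonotype held 15.5% and 0.563%, and in BCR control 2 an IGHV1-53/IGHJ4 clonotype held 16.6% and 0.383%. These clonotypes were chosen for their share in LG, so the direction of the imbalance follows from the choice.

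Few shared clonotypes recurred between mice. Of 5392 distinct clonotypes found as IgA in both tissues of a mouse, 5252 (97.4%) were so in a single mouse. The most frequent, IGHV1-76 with IGHJ2 and an HCDR3 of 11 amino acids, was held by both tissues in 5 NOD-FMT and 5 PBS-T mice and in no BCR control mouse. It made up 0.0195% to 4.78% of the LG and 0.227% to 6.60% of the spleen IgA counts of these 10 mice. With spleen taken alone, 16 mice held it, and the groups of the added mice are not given here. The HCDR3 nucleotides most frequent in LG had 9 versions that encode 1 amino acid sequence. Capitals mark the bases that differ from NOD-FMT 2.
NOD-FMT 2: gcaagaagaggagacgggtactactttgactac
NOD-FMT 3: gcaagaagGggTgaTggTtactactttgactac
PBS-T 1: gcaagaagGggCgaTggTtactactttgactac
PBS-T 3: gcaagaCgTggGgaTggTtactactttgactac
PBS-T 6: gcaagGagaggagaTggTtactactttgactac

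Thus 1 clonotype, as defined here, had different nucleotides in different mice. The filter removed identical nucleotide sequences of 3 or more mice, so clonotypes with 1 nucleotide form are counted in fewer mice than they occurred in. A second IGHV1-76/IGHJ2 clonotype of the same length was held by both tissues of 4 NOD-FMT and 3 PBS-T mice, with 6 versions. An IGHV3-6/IGHJ2 clonotype of 10 amino acids was held by 3 mice of each group, at up to 0.071% of LG IgA counts. An IGHV7-1/IGHJ1 clonotype of 14 amino acids was held by 2 BCR control, 3 PBS-T and 4 NOD-FMT mice, at up to 0.0989% of LG IgA counts, with the same nucleotides in all of them.
IGHV7-1/IGHJ1: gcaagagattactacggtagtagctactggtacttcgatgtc

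An IGHV6-3/IGHJ3 clonotype of 7 amino acids was held by both tissues of 9 mice and an IGHV6-3/IGHJ1 clonotype of 6 amino acids by 6 mice, all of the NOD-FMT group. With spleen taken alone, 10 mice held the first and 9 the second, and the groups of the added mice are not given here. The first made up 0.000771% to 2.39% of the LG and 0.00257% to 0.668% of the spleen IgA counts of the mice with it in both tissues, and it had 7 nucleotide versions in LG. Capitals mark the bases that differ from NOD-FMT 1.
NOD-FMT 1: acaggagatgggtttgcttac
NOD-FMT 5: acaggTgaCgggtttgcttac
NOD-FMT 6: acGggTgaCgggtttgcttac
NOD-FMT 7: acaggagatggAtttgcttac

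The IGHV genes that edgeR called by counts, with the mouse as a block, were scarcer in LG. The share of each IGHV gene in the IgA counts was fitted for 93 genes. In NOD-FMT mice 15 genes passed an FDR of 0.05 (16.1% of those tested), all lower in LG. In PBS-T mice 11 genes passed (11.8%), all lower, and in BCR control mice 1 passed (1.08%), which was IGHV8-5, lower in LG (log2 fold change -6.62, FDR = 0.013). Leaving out 1 mouse at a time, the PBS-T count ran from 3 (without PBS-T 7) to 28 (without PBS-T 5), and it was 17 without PBS-T 1, 7 without PBS-T 4 and 6 without PBS-T 2, 6 or 8. The BCR control call was lost without mouse 1, 3 or 5. The genes called in both gavaged groups were IGHV1-49, IGHV14-2 and IGHV9-2.

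The median log2 fold change of all 93 genes was itself below 0, at -1.61 in NOD-FMT, -1.83 in PBS-T and -1.59 in BCR control mice, and TMM scaling moved it to -1.10, -1.01 and -0.71. Without the mouse as a block it was -0.09, -0.53 and -0.58, with 50 of 93 genes lower in NOD-FMT mice, and 3, 2 and 0 genes passed, of which 1 in PBS-T mice was higher in LG. With TMM scaling 10, 2 and 2 genes passed, of which 1 in BCR control mice was higher in LG. DESeq2, with its own size factors, called 36 genes in NOD-FMT (4 higher and 32 lower), 27 in PBS-T (2 and 25) and 12 in BCR control mice (1 and 11). Each fold change below should be read against these medians.

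Of the genes that averaged at least 1% of the IgA counts in a tissue, IGHV14-2 was the most shifted in NOD-FMT mice. It held 0.503% ± 0.798 of LG and 2.23% ± 1.65 of spleen IgA counts and was lower in LG in 10 of 10 mice (log2 fold change -3.16, FDR = 0.00401, edgeR). With TMM scaling its log2 fold change was -2.79 (FDR = 0.031). In PBS-T mice IGHV14-2 held 0.841% ± 0.936 and 2.84% ± 2.82 and was lower in 8 of 9 (log2 fold change -2.60, FDR = 0.026), but it did not pass with TMM scaling (FDR = 0.339). In BCR control mice it held 0.591% ± 0.503 and 1.89% ± 3.06, with 3 of 5 lower and no call (FDR = 0.438).

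Also lower in NOD-FMT glands were IGHV1-9 and IGHV5-4. IGHV1-9 had a median of 0.584% in LG and 4.43% in spleen (log2 fold change -1.93, FDR = 0.00896, 9 of 10 lower). IGHV5-4 had medians of 0.0641% and 0.324% (log2 fold change -2.81, FDR = 0.0405, 8 of 10 lower), and its spleen mean of 3.99% rested on 1 library at 36.8%. Neither passed with TMM scaling (FDR = 0.131 and 0.127).

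In PBS-T glands the named genes that fell were IGHV1-52, IGHV2-9-1, IGHV5-17 and IGHV1-76. IGHV1-76 held 1.53% ± 1.90 of LG and 3.99% ± 2.08 of spleen IgA counts (log2 fold change -1.87, FDR = 0.019, 8 of 9 lower). IGHV2-9-1 held 0.677% ± 0.959 and 2.61% ± 3.78 (log2 fold change -2.59, FDR = 0.025, 9 of 9 lower). IGHV1-52 and IGHV5-17 had log2 fold changes of -3.45 and -1.94, each with 8 of 9 mice lower. None of these passed with TMM scaling (FDR from 0.176 to 0.339).

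**Figure D4:**
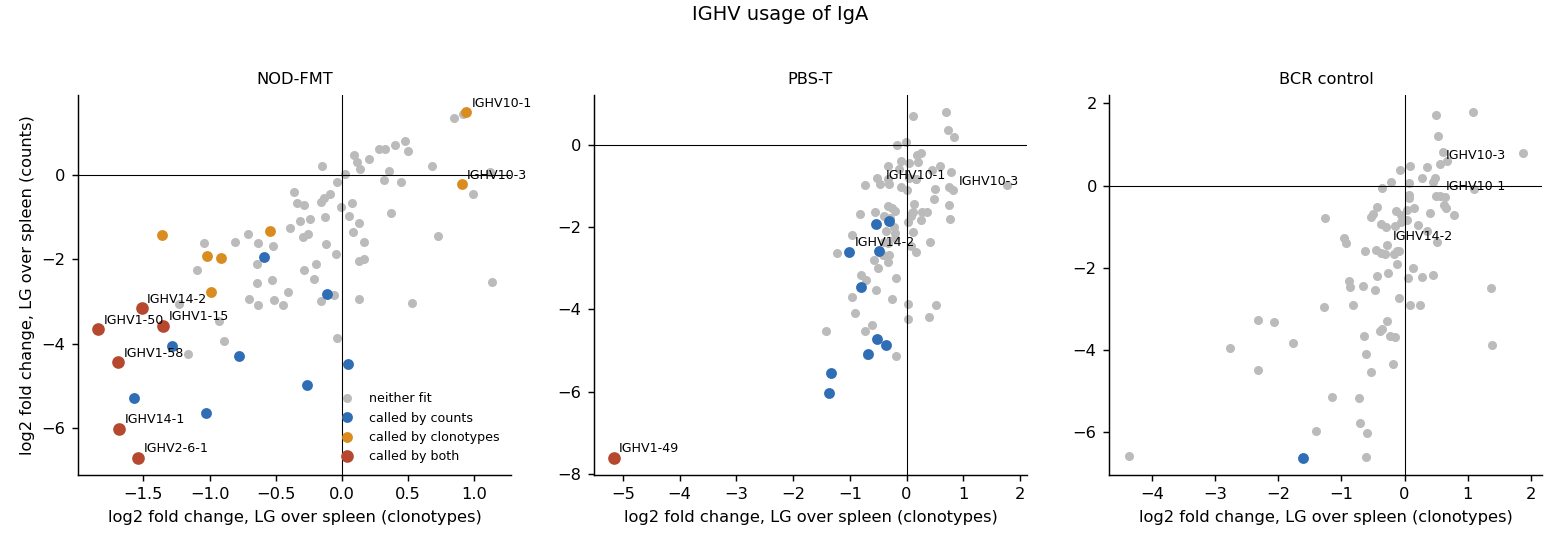
IGHV usage of IgA, with 1 point per gene (93 genes) and 1 panel per group, as the log2 fold change of LG over spleen by clonotypes (horizontal) and by counts (vertical). Colours give genes called at an FDR of 0.05 by counts, by clonotypes, by both or by neither fit. Most points lie below 0 on the vertical axis, and the genes called by both fits in NOD-FMT mice, IGHV14-2 among them, lie in the lower left.

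Counted by clonotypes, where a large clone weighs no more than a small one, the medians were close to 0 (-0.16, -0.19 and -0.15). Here 13 genes were called in NOD-FMT mice (14.0%), 2 higher and 11 lower in LG (5 and 10 with TMM scaling, 5 and 10 with DESeq2, 4 and 10 without the block), 1 in PBS-T mice (1.08%, IGHV1-49) and 0 in BCR control mice (0.0%). The NOD-FMT count fell to 7 without NOD-FMT 10, and the PBS-T count was 0 without PBS-T 5 and 2 without PBS-T 2 or 4. In BCR control mice 8 genes had an unadjusted p under 0.05 in edgeR and DESeq2 called 2. The genes higher in NOD-FMT glands were IGHV10-1, with 2.16% ± 1.53 of LG and 0.985% ± 0.239 of spleen clonotypes (log2 fold change 0.94, FDR = 0.021), and IGHV10-3, with 1.90% ± 1.14 and 0.936% ± 0.329 (0.90, FDR = 0.021). IGHV14-2 was lower by clonotypes as well (log2 fold change -1.51, FDR = 0.000733, 10 of 10 mice). By counts and clonotypes alike, 6 genes were called in NOD-FMT mice, namely IGHV1-15, IGHV1-50, IGHV1-58, IGHV14-1, IGHV14-2 and IGHV2-6-1.

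No gene passed in the comparison of the tissue gap between NOD-FMT and PBS-T mice, by counts or by clonotypes (0.0% of 93). By counts 5 genes had an unadjusted p under 0.05 in edgeR, and DESeq2 called 10, of which 6 had a higher and 4 a lower log2 ratio of LG to spleen in NOD-FMT than in PBS-T mice. By clonotypes the numbers were 6 and 0.

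Among families in the fit by counts, IGHV14, of which all 4 genes were tested, had the lowest median log2 fold change in NOD-FMT mice at -3.55, with 2 of 4 genes called lower. IGHV1, the largest family, held 56.1% ± 13.5 of LG and 60.2% ± 9.71 of spleen IgA counts in NOD-FMT mice, higher in LG in 2 of 10. It held 69.2% ± 10.5 and 56.9% ± 8.64 in PBS-T mice, higher in LG in 8 of 9, and 68.9% ± 8.75 and 66.1% ± 12.5 in BCR control mice, higher in 3 of 5. By clonotypes it held 63.0% of LG and 65.0% of spleen in NOD-FMT mice, higher in LG in 3 of 10. The clonotype shares were 63.2% and 63.6% in PBS-T mice (5 of 9) and 66.3% and 69.6% in BCR control mice (0 of 5). Of its 47 tested genes 7, 4 and 0 were called lower by counts, and shares of 16.1%, 11.8% and 1.08% were called among all genes. The median log2 fold change was above 0 in IGHV7 (0.72) and IGHV10 (0.64) in NOD-FMT mice, without a gene called by counts, while both tested IGHV10 genes were called higher by clonotypes. Of the 3 genes typical of B-1 cells only IGHV11-2 had enough counts to be tested. It was called lower in PBS-T glands (log2 fold change -4.71, FDR = 0.027, and 0.111 with TMM scaling), not in NOD-FMT (FDR = 0.059) and not in BCR control mice (FDR = 0.244), where the gland of mouse 2 held 18.8%. The IGHV11 family was near the floor in PBS-T mice, with medians of 0.0% of LG and 0.0111% of spleen IgA counts. Its spleen mean of 0.151% rested mostly on 1 library at 1.03%. By clonotypes it held 0.0510% of LG and 0.0627% of spleen in these mice.

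IGHJ usage was not called different in any of the 12 exact sign-flip tests of 4 genes in 3 groups. IGHJ3 in PBS-T mice was nearest, at 13.4% ± 6.57 of LG and 24.1% ± 5.22 of spleen IgA counts and lower in 8 of 9 mice (exact sign-flip test, p = 0.00781, adjusted p = 0.0938). In BCR control mice IGHJ3 was lower in LG in 5 of 5 (17.6% ± 6.21 against 24.5% ± 5.33, exact p = 0.0625). In NOD-FMT mice it was 26.3% ± 8.64 against 25.1% ± 7.22.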

How the data were processed

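BCR heavy-chain libraries of LG and spleen from 24 mice were analysed. Per the methods, the authors reverse transcribed RNA with barcoded isotype primers, merged paired reads, clustered reads by barcode, dropped clusters of 1 read, and annotated with IMGT and IgBLAST, and the labels give mm10. The deposited counts are numbers of barcode consensus sequences, and the deposited frequency is a fraction, the count over the library total. The deposited V mismatch and length columns were used as given, and values were summed here by mouse and tissue. The release of the germline set is not given in the sources used here, and what merging of a library involved is not stated.

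A nucleotide sequence was dropped from a tissue when at least 3 mice had it there. This removed 9.83% of all LG and 9.84% of all spleen counts. The authors describe a filter by the same rule but report much smaller removed shares in both tissues. The reason for that gap was not tested. IGHV genes with at least 10 counts or 3 clonotypes in 5 libraries were tested with edgeR 4.0.16 (R 4.3.3, DESeq2 1.42.0 as an alternative), Benjamini-Hochberg adjusted, at 0.05. Library size was the IgA total. Other tests were exact permutations over mice, two-sided (SciPy 1.17.1, NumPy 2.4.6, pandas 2.3.3, Python 3.11.15), tested on simulated data. The exceptions were those without the mouse as a block, which permuted libraries and in NOD-FMT mice drew 100000 random resamples. Tissues were paired by mouse, as labelled. The 11 merged libraries were also analysed apart. IGHV genes were named if called and averaging at least 1% in a tissue, with the largest fold changes. The clonotypes shown were those held by both tissues in most mice, and the largest in LG of each group. Members, lists and clonotype rules were chosen with earlier results of these data known. Igha coordinates are from GENCODE on GRCm38. Counting intervals are not given, since mice were the unit.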

Additional observations from a re-analysis of the deposited data

Results flagged for a closer look

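In 48 sets of 5 to 10 mice, 8 values of 6 mice lay far from the rest of their group. Chance gives about 1 in 20 such sets, and the sets overlap, since LG, spleen and their difference come from the same mice. The LG of BCR control 2 had an IgA share of 88.6%, with the next lowest gland at 96.7%, and an unmutated share of 70.9%, with the next highest at 47.8%. Its gain in unmutated share over spleen was 52.4 points against 28.5 for the next mouse. The sequences this gland shared with BCR control 3 are given in the report, and their part in these values was not tested. The spleen of BCR control 4 had a mean HCDR3 length of 10.7 amino acids against 11.6 for the next.

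The LG of NOD-FMT 6 had 1.70 V mismatches per IgA sequence, with the next at 0.943, and the spleen of NOD-FMT 8 had an unmutated share of 51.0%, with the next at 34.9%. In that spleen 1 clonotype held 35.5% of the IgA counts. PBS-T 5 had 1.09 more mismatches in LG than in spleen, with the next difference at -1.15. PBS-T 2 had a gap in evenness of -0.439, with the next at -0.179, beside 1 clonotype at 52.0% of its LG IgA counts.

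The gap between LG and spleen differed between NOD-FMT and PBS-T mice in the IgA share (20.1 points, exact permutation p = 0.00154) and in the unmutated share (26.9 points, exact permutation p = 0.0025).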

How the results depend on the processing

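Of 726 alternative values over 35 results, 603 kept direction and side of the threshold, or moved little, 48 lost and 7 gained a call, 50 moved and 18 turned sign. The causes were not tested. The IgA share, V mismatches and own-spleen excess in NOD-FMT mice stayed past the threshold under every setting except the subsets of 4 to 6 mice below. Depth limits evenness and the number of clonotypes found in both tissues, and 5 BCR control mice cannot pass an exact sign-flip test, which pairs the tissues.

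With no contamination filter the evenness gap in NOD-FMT mice was -0.0912, with the filter over both tissues -0.0793, with a shared sequence kept in its highest mouse (a setting chosen after seeing the data) -0.0903, with at least 2 counts per clonotype -0.0584 and at equal depth -0.0595, each past the threshold no longer. In PBS-T mice it was -0.0954 with at least 2 counts and -0.108 at equal depth, also lost. IGHJ usage had 1 called gene in PBS-T mice with no filter, with the filter at 2 mice, with a shared sequence kept in its highest mouse and without the replicate block. With no filter the BCR control calls were 0 by counts and 6 by clonotypes.

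With each clonotype weighted once, the HCDR3 length gap turned to 0.0580 in BCR control mice and -0.0348 between NOD-FMT and PBS-T mice, the mismatch gap in PBS-T mice was -0.736 and the difference in unmutated share 9.67. Measured as percent of LG counts in clonotypes of the own spleen over that of other spleens, NOD-FMT minus PBS-T turned to 15.1 points (exact permutation p = 0.0452). It rested on PBS-T 5, where clonotypes of the own spleen held 3.53% of LG counts, and without that mouse, a setting chosen after seeing the data, it was 7.65 points (exact permutation p = 0.0998).

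Without the replicate block, which pairs the tissues of a mouse, BCR control gaps passed the threshold in the IgA share (77.9), mismatches (-2.87), unmutated share (29.9) and evenness (-0.0695), as did the unmutated share in PBS-T mice (16.1). IGHV calls by counts were 3 in NOD-FMT, 2 in PBS-T and 0 in BCR control mice. Equal numbers across groups do not pair mice, since deviations of same-numbered mice correlated from -0.204 to 0.125 in LG and from -0.253 to 0.342 in spleen. With a replicate block by that number the IgA share difference was 20.02 points and the unmutated difference 26.4 points, both with an adjusted p of 0.0684.

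Among merged LG libraries (6 NOD-FMT and 4 PBS-T mice) calls were lost for the IgA share (84.4 in NOD-FMT, 76.1 in PBS-T, 8.29 between them), mismatches (-1.73 and -1.66), unmutated share (37.1 in NOD-FMT, 15.8 between), evenness (-0.0610 and -0.0955) and own-spleen excess (30.6 and 26.7). In both the merged and the other libraries, each gavaged group had only 4 to 6 mice. No exact sign-flip test within a group could then pass after adjustment, so those losses were fixed by the number of mice. Among merged libraries the length difference turned to -0.119 and the excess difference to 3.85. IGHV calls were 0 in NOD-FMT and 1 in PBS-T mice by counts and 4 and 2 by clonotypes. Among the other libraries calls were likewise lost for the IgA share (87.8, 57.3 and 30.6), mismatches (-2.79 and -1.27), unmutated share (51.8, and 39.9 between), evenness (-0.120 and -0.142) and excess (27.6 and 33.3). IGHV calls were 3, 2 and, between groups, 2 by counts, and 8, 0 and 1 by clonotypes. No merged fit was made for the BCR control group, which has 1 such mouse, and thinning does not apply to the IgA share.

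Settings chosen after seeing the data left out libraries that stood apart. Without BCR control 2 and 3 the length gap turned to 0.0223 and IGHV calls by counts were 0. Without PBS-T 2 and 5 the length difference turned to -0.123, the unmutated gap in PBS-T mice was 25.4, with the mice of opposite direction removed, and 3 IGHV genes were called by clonotypes.

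IGHV calls by counts were 2 in PBS-T and 2 in BCR control mice with TMM scaling and 36, 27, 12 and, between groups, 10 with DESeq2. They were 5 in NOD-FMT and 0 in PBS-T mice by an exact sign-flip test per gene, and 3 between groups by an exact permutation test per gene. By clonotypes TMM scaling called 2 and DESeq2 2 in BCR control mice. In PBS-T mice DESeq2 and the sign-flip test called 0, and 2 were called with no filter on low genes.

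Leaving out 1 mouse at a time gave an evenness gap of -0.106 to -0.0686 in NOD-FMT mice (called only without NOD-FMT 8), -0.142 to -0.0820 in PBS-T mice (lost without 3, 4, 6, 7, 8 or 9), -0.0802 to -0.0455 in BCR control mice and a difference of -0.00247 to 0.0571, negative without PBS-T 2. The length gap was -0.208 to 0.00524 in BCR control mice (positive without 1), -0.0932 to 0.347 in PBS-T mice (negative without 7 or 8), and -0.0351 to 0.405 between groups (negative without PBS-T 2). The excess difference was -4.71 to 2.35 points (positive without NOD-FMT 1 or 2, or PBS-T 1, 4 or 9). The unmutated gap in PBS-T mice was 12.3 to 20.2 (called only without PBS-T 2, a mouse of opposite direction). The IgA share difference was 13.1 to 23.3 points, lowest without PBS-T 9. The mismatch difference was -0.853 to -0.393, nearest 0 without PBS-T 5. IGHV calls by counts were 0 to 1 in BCR control mice (0 without 1, 3 or 5) and 3 to 28 in PBS-T mice, with 28 without PBS-T 5, 17 without 1, 7 without 4, 6 without 2, 6 or 8, and 3 without 7. By clonotypes they were 7 to 17 in NOD-FMT (7 without NOD-FMT 10), 0 to 2 in PBS-T (2 without 2 or 4, 0 without 5) and 0 to 1 between groups (1 without NOD-FMT 1).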
